A study of Macaca mulatta with 64 samples.

Results

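The 8 genes described here, GFAP, ALDH1L1, GLUL, SLC1A2, SLC1A3, GJA1, AQP4 and ALDOC, are commonly used markers of astrocytes. They were taken by Ensembl ID from a table of transcription start positions in the brain of the rhesus macaque, with every position assigned to them. They hold 215 of the 160389 positions and are 8 of the 13269 genes in the table. The rule is a list of names with no threshold on a value, but the genes were listed with earlier results of these data known. CAGE-seq counts tags at the 5′ ends of RNAs, here after poly(A) selection and digestion of RNA with a free 5′ phosphate. The 64 libraries came from the cerebellar cortex (CB), from CA1 and the dentate gyrus (DG) of the hippocampus, and from the prefrontal (PFC), posterior cingulate (PCC), temporal, parietal (PC) and occipital (OC) neocortex. Each of the 8 regions had 1 library from females and 1 from males of 1, 4, 10 and 20 yr. The labels name no treatment. The study profiled 2 specimens of each sex at each age and took all 8 regions from each. CAGE-seq used the samples of its RNA-seq, where 1 library stands for a pair of animals matched in age and sex. Such a pair is called an animal group here. Each such combination was sequenced once per region. The p-values for ages and sexes therefore measure the spread between animal groups. Those that compare regions measure how far region differences vary between animal groups, together with the noise of single libraries.

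Astrocytes surround synapses and small vessels. They clear the glutamate that neurons release, turn it into glutamine and hand it back, pass ions and metabolites to each other through gap junctions, and hold water channels in the endfeet that wrap the vessels. GFAP protein is known to fill astrocytes of the hippocampus and the white matter more than those of the grey matter of the neocortex, and Bergmann glia are the cerebellar astrocytes with cell bodies beside those of Purkinje cells and processes through the molecular layer. In whole tissue such as this, fewer cells of a type and less RNA per cell cannot be told apart.

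TPM here means tags per 1000000 tags of the library, whatever the length of the gene, and the TPM of a gene is the sum over its positions. The step between low values implied 1509662 to 6093845 tags per library (median 3778750). No listed value was below 1 TPM, which stood for 2 to 7 tags, so that a gene listed at 0 may still have had a few tags. Libraries listed between 545 and 8143 genes. CA1 libraries listed a median of 5474 genes, PCC libraries 1254, and 6 libraries fewer than 1000. A set of 13 genes of cerebellar granule and Purkinje cells summed to 2530 to 4050 TPM in the CB libraries, against 0 to 771 TPM in the other 56. The CB libraries therefore held cerebellar RNA at a level that did not overlap with the rest.

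All 8 genes were found, but at very unequal depth. GFAP, the main intermediate filament protein of astrocytes, was listed in 60 of the 64 libraries, ALDOC in 48, GLUL in 46 and ALDH1L1 in 31. SLC1A3 was listed in 21 libraries, SLC1A2 and GJA1 in 11 each, and AQP4 in 9. The median gene of the table was listed in 6 libraries. GFAP ranked 397th of all genes by its mean of 221 TPM, ALDOC 803rd, GLUL 1023rd and ALDH1L1 1096th, while the mean of SLC1A2, 3.34 TPM, ranked 6437th. Tags were not counted per length and a gene's tags need not all be caught at its 5′ end, so these ranks order the signal in this assay and not the amount of RNA. CA1 libraries listed a median of 6.5 of the 8 genes, temporal cortex libraries 5, PC libraries 4.5, DG libraries 4, PFC libraries 3.5, CB and OC libraries 3, and PCC libraries 1.5. All 8 were listed together in 2 libraries, both of CA1, from 4-yr-old males and 20-yr-old females. In 2 libraries none was listed, that of CB from 10-yr-old females, which listed 545 genes, and that of PCC from 4-yr-old males, which listed 978 genes.

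**Figure D1:**
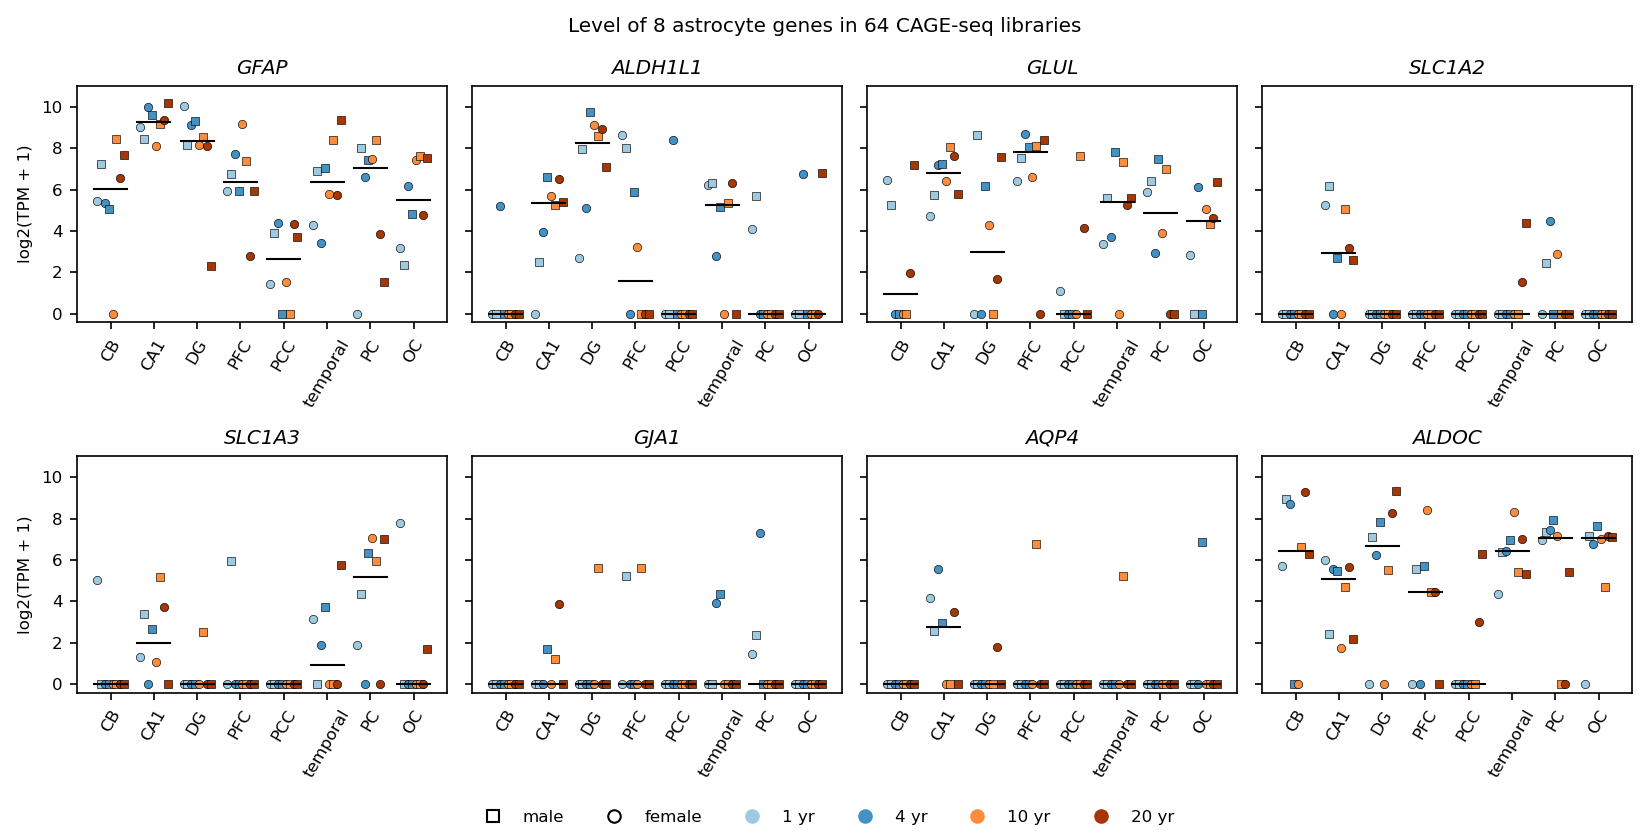
Level of each gene in each of the 64 libraries, as log2(TPM + 1), by region, with squares for males, circles for females, color for age and a bar at the median of the 8 libraries of a region. GFAP is high in all 8 CA1 libraries (273 to 1166 TPM) and low in PCC (0 to 19.7 TPM), while SLC1A2 is listed in CA1 (6 of 8 libraries) and in no DG library.

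Where the tags lay differed from gene to gene. All positions are on the MMUL 1.0 build, and distances run from the annotated start of the gene along its strand. Exons, introns and UTRs were not analysed here. Over all genes, 53.7% of the TPM lay within 500 nt of the annotated start and 12.2% in the last 10% of the gene.

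GFAP lies on the minus strand of chromosome 16 (55005742 to 55009937) and had 67 positions, of which 28 were listed in more than 1 library. Its main position, 55009951, lies 14 nt before the annotated start. It held 54.4% of the TPM of GFAP and was listed in 43 libraries. The next position, 55009880, lies 57 nt after the start, and held 16.4% in 23 libraries. In all, 91.5% of the TPM of GFAP lay within 500 nt of the start and none in the last 10%. GLUL, which codes for glutamine synthetase, lies on the plus strand of chromosome 1 (188279222 to 188287102). Its position 188279640, 418 nt after the start, held 80.1% of its TPM in 42 libraries, and 94.6% lay within 500 nt. These genes, GFAP and GLUL, were the only members with most of their TPM within 500 nt of the annotated start.

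ALDH1L1, which codes for a folate enzyme of the astrocyte cytoplasm, lies on the minus strand of chromosome 2 (45883056 to 45964660), and 0 of its 21 positions lay within 500 nt of the start. Its main position, 45889691, lies 74969 nt into the gene and 6635 nt before its end. It held 79.4% of the TPM in 22 libraries, and 94.0% lay in the last 10%. The values given below for ALDH1L1 are therefore those of tags near the end of the gene. Whether these tags mark the start of a shorter transcript was not tested. ALDOC, which codes for the brain form of the glycolytic enzyme aldolase and is also made by Purkinje cells, lies on the minus strand of chromosome 16 (23768683 to 23771113). Its 57 positions were spread along the gene. Position 23768920, 2193 nt after the start, held 23.9% of the TPM in 24 libraries, position 23769469, 1644 nt after the start, held 14.4% in 8 libraries, and 12.1% lay within 500 nt.

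Of the transporters that clear glutamate, SLC1A3 lies on the plus strand of chromosome 6 (36416288 to 36499136). Its main position was the annotated start itself, with 39.0% of the TPM in 12 libraries. A position 76012 nt into the gene held 25.04% in 1 library, that of OC from 1-yr-old females, and a position 82696 nt into it held 21.3% in 2 libraries. SLC1A2, on the plus strand of chromosome 14 (36414253 to 36579229), had 16 positions, and 15 of them were listed in 1 library each. The largest, 713 and 885 nt after the start, held 16.8% and 15.0% of its TPM, each in 1 CA1 library, and 4.13% lay within 500 nt. Little of the signal of SLC1A2 thus came from a position that was seen again.

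GJA1, which codes for the main connexin of astrocyte gap junctions, lies on the minus strand of chromosome 4 (142537743 to 142551372). Its main position, 12492 nt into the gene, held 45.4% of its TPM in 1 library, and 68.4% lay in the last 10%. AQP4, which codes for the water channel of astrocyte endfeet, lies on the minus strand of chromosome 18 (19847159 to 19857152). Positions 9505 and 9425 nt after its start held 33.0% and 31.6% of the TPM, each in 1 library, and a position 49 nt after the start held 10.4%, also in 1 library. Of the TPM of AQP4, 86.4% lay in the last 10% and 13.6% within 500 nt of the start. GJA1 and AQP4 were therefore read mostly near the end of the gene, at positions that few libraries shared.

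**Figure D2:**
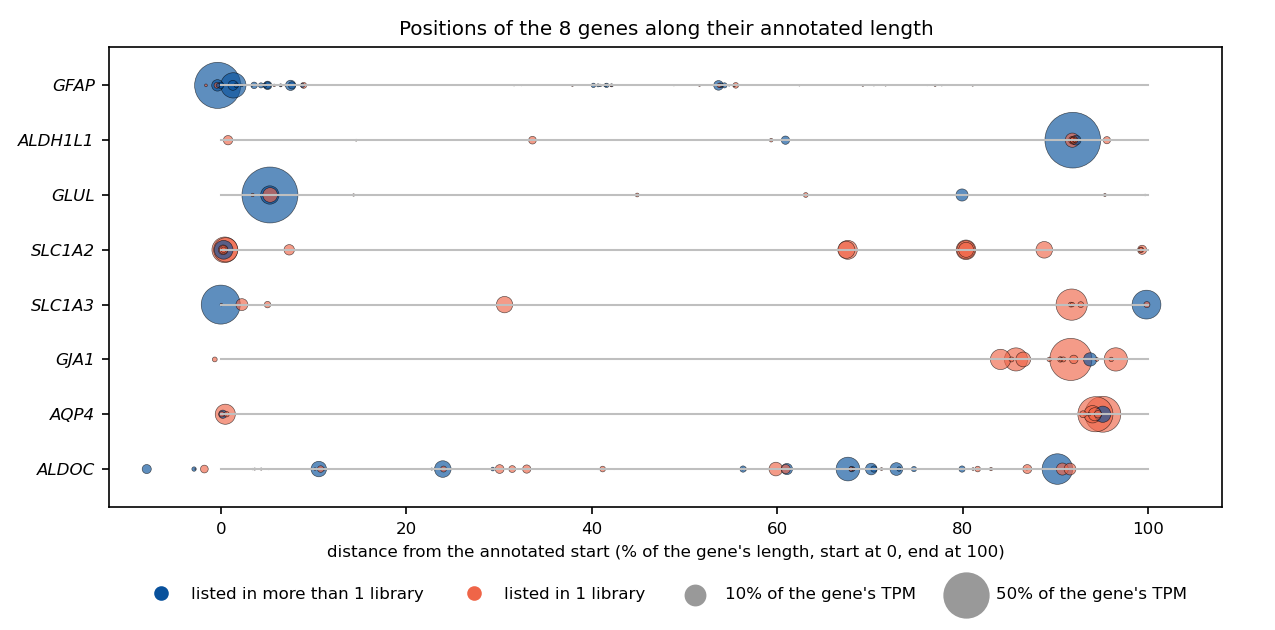
The 215 positions of the 8 genes, by distance from the annotated start as a percentage of the gene's length, with the area of a circle for the share of the gene's TPM and color for listing in 1 or in more libraries. GFAP (91.5% within 500 nt of the start) and GLUL (94.6%) lie at the left, and ALDH1L1 (94.0% in the last 10%), GJA1 (68.4%) and AQP4 (86.4%) mostly at the right.

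The comparison of the hippocampus with the neocortex asked which genes differ between these tissues. GFAP and ALDH1L1 were higher in the hippocampus, and the other 6 genes did not pass the test. GFAP had 3.92, 539 and 1166 TPM (lowest, median and highest) in the 16 hippocampal libraries, against 0, 56.9 and 645 TPM in the 40 neocortical ones. All hippocampal libraries but 1, that of DG from 20-yr-old males, had at least 273 TPM, 5 of the 16 lay above the highest neocortical library, and 2 of the 40 neocortical libraries reached the hippocampal median. The groups thus overlapped, through libraries of temporal cortex, PFC and PC. The mean difference in log2(TPM + 1) was 3.38 ± 0.65 (SE; 95% interval 2.08 to 4.68; adjusted p = 0.00051 in limma), and the difference was positive in 8 of 8 animal groups, at 0.63 to 6.55.

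ALDH1L1 had 0, 69.5 and 849 TPM in the hippocampal libraries and was listed in 15 of 16. In the neocortical libraries it had 0, 0 and 401 TPM and was listed in 15 of 40. Most neocortical libraries were at 0 and most hippocampal ones were not, but 8 of the 40 neocortical libraries reached the hippocampal median. The difference in log2(TPM + 1) was 3.70 ± 0.81 (SE; 95% interval 2.07 to 5.33; adjusted p = 0.0022), positive in 7 of 8 animal groups. Over all 6106 genes tested, 7.98% were called higher in the hippocampus and 8.19% in either direction, and 2 of the 8 astrocyte genes were called, both higher. The median difference was 0.84 for the 8 genes and 0.55 for all genes, and the differences of GFAP and ALDH1L1 exceeded that shared shift.

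SLC1A2 was listed in 6 of 16 hippocampal libraries, all of CA1, and in 5 of 40 neocortical ones. Its difference was 1.17 ± 0.39 (SE; 95% interval 0.38 to 1.95; adjusted p = 0.051). SLC1A2, GJA1 and AQP4 reached 1 TPM in 5, 7 and 3 libraries outside the hippocampus, fewer than the 8 that a test required, so they were tested only through their hippocampal libraries. GLUL differed by 0.86 (95% interval -0.76 to 2.48), AQP4 by 0.81 (-0.15 to 1.78) and ALDOC by 0.43 (-1.21 to 2.08). GJA1 differed by 0.02 (-0.99 to 1.03) and SLC1A3 by -0.32 (-1.53 to 0.88). These intervals, some more than 3 log2 units wide, leave room for differences in either direction in GLUL, AQP4, ALDOC, GJA1 and SLC1A3.

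How many genes a library listed moved with this result. Over the 64 libraries, log2(TPM + 1) of GFAP and the log2 number of listed genes had a Pearson r of 0.61, given as a description, since both come from the same library. With that number as a covariate, the difference of GFAP was 2.31 (adjusted p = 0.055) and that of ALDH1L1 was 2.44 (adjusted p = 0.14), and neither was called. With the libraries quantile normalized, both were called, with differences of 3.63 and 3.35 (adjusted p = 2.8e-04 and 0.0061). PCC, with the fewest listed genes, had the lowest median of GFAP, 7.0 TPM, and 15 of the 16 hippocampal libraries lay above the highest PCC library. Without the 8 PCC libraries, a choice made after seeing the data, the differences were 2.68 for GFAP (adjusted p = 0.015) and 3.40 for ALDH1L1 (adjusted p = 0.013). Without the PFC library of 20-yr-old females they were 3.27 and 3.60, and both were called.

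**Figure D3:**
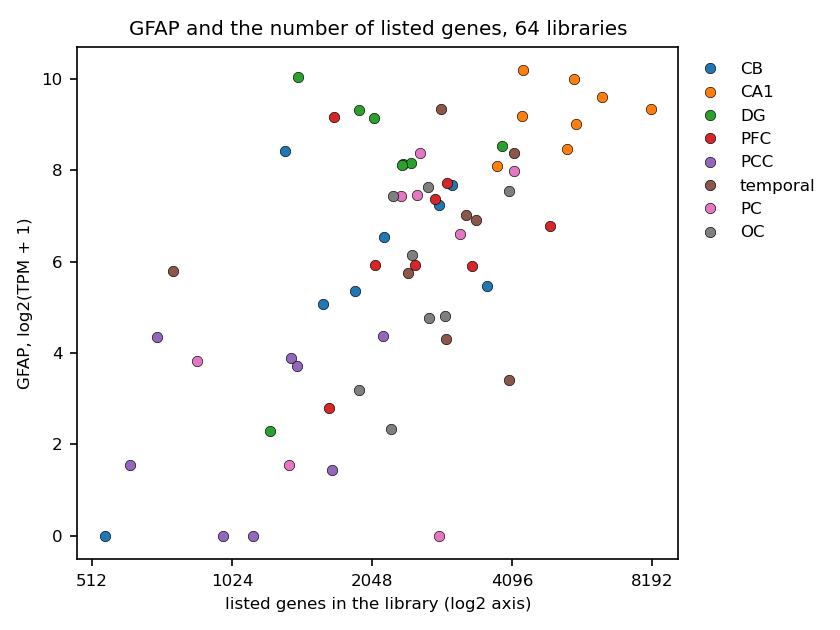
Level of GFAP, as log2(TPM + 1), against the number of listed genes on a log2 axis, 1 point for each of the 64 libraries, colored by region. CA1 libraries lie at the upper right, PCC libraries at the lower left, and most DG libraries stand high at a middling number of listed genes (median 2220).

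Markers of other cells also differed between these tissues. The 8 genes of oligodendrocytes and myelin with a position summed to 736, 4526 and 8213 TPM in the hippocampal libraries and to 49.2, 1575 and 7569 TPM in the neocortical ones. All 5 of them that were tested were called higher, and the 4 with the smallest p were MAL (1.89), MOG (3.35), MOBP (2.63) and MBP (1.50). MAL and MOG were each listed in 5 neocortical libraries, and in 1 and 2 CB libraries, fewer than the 8 required. They were tested only through their hippocampal libraries, and their calls are given as a description. The part of white matter in the differences of GFAP and ALDH1L1 was not tested. Of 16 neuronal genes, 2 were called higher, beside 7.98% of all genes. They were MAP2 (2.59), of the dendritic cytoskeleton, and CAMK2A (2.30), a kinase of glutamatergic synapses. The neuronal genes summed to a median of 2886 TPM in the hippocampal libraries and 4418 TPM in the neocortical ones, while the median of their log2 differences was 0.29. Microglial genes summed to a median of 146 TPM in the hippocampal libraries and 216 TPM in the neocortical ones. The 4 tested had a median log2 difference of 0.47, with 0 called in limma. Of them, 1 had an unadjusted p under 0.05, beside 23.0% of all genes.

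Beyond the 8 genes, 2 of 18 other astrocyte genes tested were called higher in the hippocampus, beside 7.98% of all genes. They were ID4, a transcriptional regulator of neural progenitors and astrocytes, with a difference of 3.47 (adjusted p = 0.0064), and AGT, angiotensinogen, which brain astrocytes make, with 2.32 (adjusted p = 0.029). ID4 had 103, 488 and 1842 TPM in the hippocampal libraries and 0, 112 and 2137 TPM in the neocortical ones. Of 9 genes linked to reactive astrocytes, 1 was called higher, beside the same 7.98%. It was the complement gene C3, with 2.61 (adjusted p = 0.0010). Microglia express C3 as well. Of 3 other connexin and junction genes, 1 was called, GJB1, the connexin of oligodendrocytes, with 2.55 (adjusted p = 0.0022). None of the 8 tested genes of glutamate and glutamine handling was called in limma. Of them, 1 had an unadjusted p under 0.05, beside 23.0% of all genes. The median difference was 0.51 for the other astrocyte genes and 1.28 for the reactive ones, beside 0.55 for all genes.

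The comparison of CA1 with DG asked whether the 2 hippocampal sites differ. SLC1A2, the main glutamate transporter of forebrain astrocytes, was listed in 6 CA1 libraries and in no DG library. It had 0, 6.75 and 71.8 TPM in the 8 CA1 libraries and was listed at 0 in all 8 DG libraries. CA1 libraries of males of 1, 4, 10 and 20 yr had 71.8, 5.38, 32.1 and 5.11 TPM, and those of females had 37.6, 0, 0 and 8.12 TPM. The groups met only at 0, with 6 CA1 libraries above every DG library. The difference in log2(TPM + 1) was 3.12 ± 0.66 (SE; 95% interval 1.80 to 4.45; adjusted p = 7.6e-04), positive in 6 animal groups and 0 in the other 2. Outside CA1 SLC1A2 reached 1 TPM in 5 libraries and AQP4 in 4, fewer than the 8 required, so that both entered the test only through CA1, and the call of SLC1A2 is given as a description. With no such filter, over all genes of the table, the adjusted p of SLC1A2 was 3.6e-04. This value too is given as a description, since all 8 DG libraries were at 0. Over all genes, 18.5% were called higher in CA1 and 19.4% in either direction. Of the 8 astrocyte genes 1 was called, SLC1A2, which was tested only through its CA1 libraries. CA1 libraries listed 3805 to 8143 genes and DG libraries 1238 to 3898. The median difference of all genes was 1.37, and that of the 8 was 1.56. After quantile normalization, which brought the median of all genes to 0.12, SLC1A2 differed by 1.42 and was not called (adjusted p = 0.099). With the number of listed genes as a covariate it differed by 2.83 (adjusted p = 0.037).

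The other 7 genes did not pass the test between CA1 and DG. ALDH1L1 had 0, 39.2 and 97.5 TPM in CA1 and 5.49, 312 and 849 TPM in DG, where it was listed in all 8 libraries. In 6 of the 8 DG libraries it lay above the highest CA1 library, and it was lower in CA1 in 8 of 8 animal groups. Its difference was -2.91 ± 1.37 (SE; 95% interval -5.66 to -0.16; adjusted p = 0.12), of the opposite sign to the median of all genes. It was called lower in CA1 after quantile normalization (-4.45, adjusted p = 0.030) and with the number of listed genes as a covariate (-5.63, adjusted p = 0.029). GLUL was listed in all 8 CA1 libraries, with 25.3, 114 and 263 TPM, and in 5 DG libraries, with 0, 10.3 and 402 TPM. It differed by 3.05 ± 1.37 (SE; adjusted p = 0.10). AQP4 had 0, 5.89 and 46.1 TPM in CA1 and was listed in 1 DG library, at 2.47 TPM. It differed by 2.12 ± 0.82 (SE; adjusted p = 0.057). GLUL and AQP4 thus had higher medians in CA1, with ranges that overlapped those in DG.

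GFAP had 273, 615 and 1166 TPM in CA1 and 3.92, 328 and 1046 TPM in DG. The difference was 1.27 (95% interval -0.93 to 3.46; adjusted p = 0.42), below the median of all genes, and it was -1.03 with the number of listed genes as a covariate. SLC1A3 was listed in 6 CA1 libraries and 1 DG library, and differed by 1.85 (-0.18 to 3.89). GJA1 was listed in 3 CA1 libraries and 1 DG library, and differed by 0.14 (-1.56 to 1.85). ALDOC had 2.37, 34.7 and 63.8 TPM in CA1 and 0, 107 and 646 TPM in DG, and differed by -1.31 (-4.09 to 1.47).

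Of the 18 other astrocyte genes, 5 were called higher in CA1, beside 18.5% of all genes. Their median difference was 1.19, beside 1.37 for all genes. The 4 with the smallest p were SPARCL1, an extracellular matrix protein (5.68, adjusted p = 0.0054), GJB6, another connexin of astrocytes (2.02, adjusted p = 0.019), MLC1, a membrane protein of endfeet (1.99, adjusted p = 0.021), and ETNPPL, an enzyme of phospholipid metabolism (2.54, adjusted p = 0.037). The fifth was CLU, clusterin (1.09, adjusted p = 0.037), named after its value was seen. Outside CA1, GJB6 was listed in 3 neocortical libraries, and MLC1 in 4 neocortical libraries and 1 CB library. These are fewer than the 8 required, so both entered the test only through CA1, and their calls are given as a description. SPARCL1 had 106, 224 and 358 TPM in CA1 and 0, 0 and 109 TPM in DG. Oligodendrocyte genes summed to 5006, 6921 and 8213 TPM in CA1 and to 736, 2807 and 4047 TPM in DG, with OLIG2 at 0 in every DG library. Of 5 oligodendrocyte genes tested, 3 were called higher in CA1, MAL (3.93), MOBP (5.09) and MOG (2.59). Outside CA1, MAL was listed in 5 neocortical libraries, 1 DG library and 1 CB library, so it entered the test only through CA1. The part of myelinating cells in the result for SLC1A2 was not tested. Of the 9 genes linked to reactive astrocytes, C3 (3.46) and the intermediate filament gene SYNM (3.08) were called higher. In the glycolysis list, which holds no other called gene, PGAM1 was higher in CA1 (3.92) and GAPDH lower (-2.62).

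**Figure D4:**
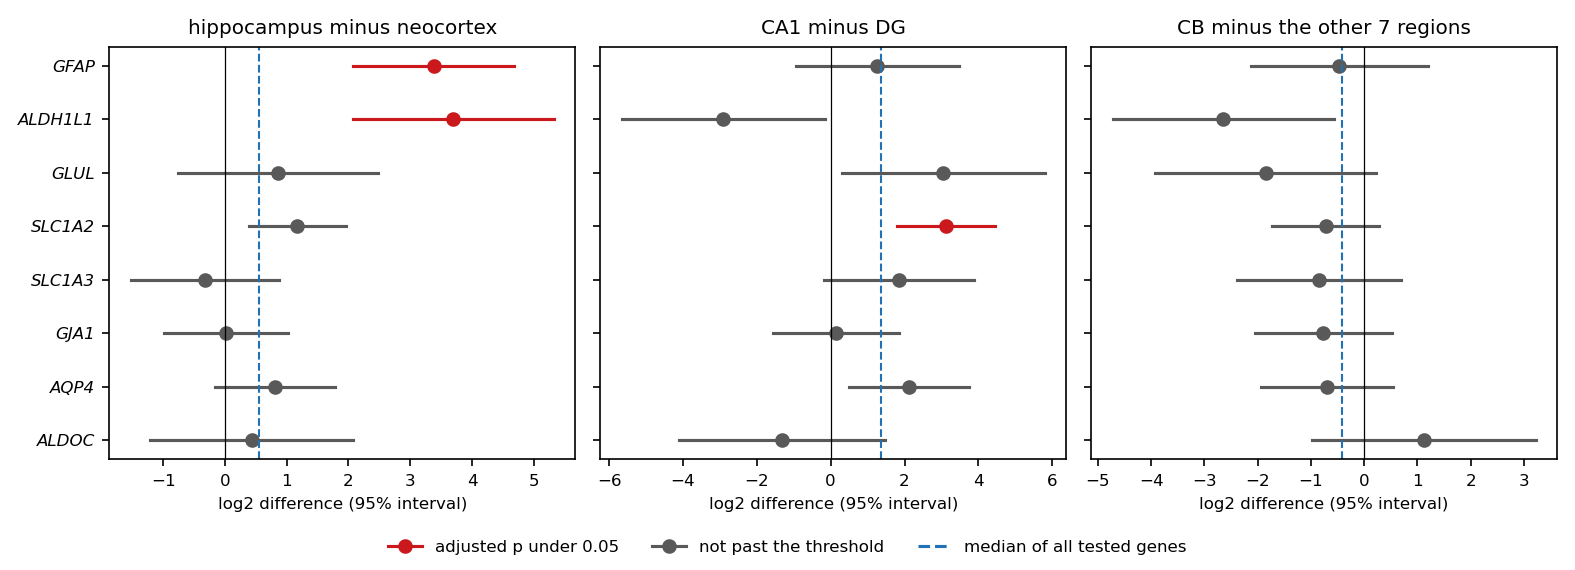
Difference in log2(TPM + 1) of each gene with its 95% interval, for the hippocampus minus the neocortex, CA1 minus DG and CB minus the other 7 regions, in red where the adjusted p was under 0.05. GFAP (3.38) and ALDH1L1 (3.70) are in red for the hippocampus and SLC1A2 (3.12), which was tested only through its CA1 libraries, for CA1, and the dashed line marks the median of all 6106 genes (0.55, 1.37 and -0.43).

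The comparison of CB with the other regions called 0 of the 8 genes, against 2.23% of all genes in limma, and 1 of the 8, ALDH1L1, had an unadjusted p under 0.05. ALDH1L1 was listed in 1 of 8 CB libraries, that of 4-yr-old females at 36.4 TPM, against 30 of the 56 other libraries. Its difference was -2.65 ± 1.04 (SE; 95% interval -4.72 to -0.57; adjusted p = 0.22). GLUL was listed in 4 CB libraries, with 0, 1.44 and 146 TPM, against 0, 42.0 and 409 TPM in the other regions, and differed by -1.85 (-3.92 to 0.23). GFAP had 0, 67.8 and 344 TPM in CB and 0, 124 and 1166 TPM in the other regions. It differed by -0.47 (-2.13 to 1.19), and by 0.44 without the animal group of 10-yr-old females, whose CB library listed no member. The neocortical median of GFAP, for comparison, was 56.9 TPM, and the ranges overlapped.

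ALDOC was the only one of the 8 with a positive difference, 1.12 (95% interval -0.98 to 3.22). It had 0, 87.2 and 629 TPM in CB and 0, 45.5 and 646 TPM elsewhere, and 6 of 8 CB libraries lay above the median of the others. The levels of ALDOC in CB cannot be assigned to astrocytes or Purkinje cells. SLC1A2, GJA1 and AQP4 were listed at 0 in all 8 CB libraries, and SLC1A3, the transporter for which Bergmann glia are known, was listed in 1, that of 1-yr-old females at 32.2 TPM. Their differences were -0.73, -0.76, -0.70 and -0.84, with intervals that held 0, beside a median of -0.43 for all genes. Among the listed genes of glutamate handling, SLC1A6, a glutamate transporter of Purkinje cells, was called higher in CB (2.56, adjusted p = 0.0075), with 0, 0.57 and 1888 TPM in CB and at most 10.1 TPM elsewhere. Outside CB it was listed in 5 libraries, fewer than the 8 required. It entered the test only through CB, and its call is given as a description. Of the other astrocyte genes, 1 of 18 was called, HOPX, lower at -3.54 (adjusted p = 0.030) and at 0 in all CB libraries. S100A6 of the reactive list was also lower (-3.79, adjusted p = 0.030).

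Among the 5 neocortical regions, 0 of the 8 genes passed the F test, against 4.63% of all genes in limma. An unadjusted p under 0.05 was found for 4 of the 8, beside 18.9% of all genes. These were SLC1A3 (adjusted p = 0.052), ALDOC (0.054), GFAP (0.059) and GLUL (0.12). The median level of SLC1A3 was 40.5 TPM in PC, where it was listed in 6 of 8 libraries, 1.38 TPM in temporal cortex and 0 in the other 3 regions. In PC, males of 1, 4, 10 and 20 yr had 19.7, 79.8, 61.2 and 127 TPM, and females had 2.71, 0, 132 and 0 TPM. The medians of ALDOC were 134 TPM in PC, 132 in OC, 84.3 in temporal cortex, 21.2 in PFC and 0 in PCC. Those of GFAP were 134 TPM in PC, 87.2 in temporal cortex, 84.2 in PFC, 48.8 in OC and 7.0 in PCC. GLUL was highest in PFC (median 225 TPM, listed in 7 of 8 libraries), followed by temporal cortex (42.0), PC (35.6), OC (21.5) and PCC (0). PCC was last for ALDOC, GFAP and GLUL, and for SLC1A3 it was at 0 with PFC and OC. Neighbouring medians elsewhere differed by less than the ranges of the libraries. Without the PCC libraries, which listed the fewest genes, the adjusted p of the members was 0.34 to 0.94.

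The share of a gene's tags at each position had unequal values over the regions, but in neither GFAP nor ALDOC did it pass a test. The position of GFAP 57 nt after the start, with those less than 20 nt away added, held 37.9% of the TPM of GFAP in DG, 43.6% in PC, 8.29% in CA1, 16.2% in CB and 2.28% in PFC. Without the neighbours the share in CB was 0.432%, since the CB library of 20-yr-old males had 143 TPM at 55 nt. With its neighbours, the position 14 nt before the start held 98.5% in PCC, 90.8% in PFC, 75.7% in CB and 68.7% in temporal cortex. It held 61.8% in CA1, 47.3% in DG, 42.5% in OC and 42.1% in PC. Alone it held 90.4% in PFC and 16.6% in OC, where the library of 10-yr-old males had 171 TPM at the next nucleotide upstream. The joined shares were computed after the values were seen. In DG most of the tags at 57 nt came from 1 library, that of 1-yr-old females, with 846 of 1304 TPM. In PFC the library of 10-yr-old females had 572 of the 1121 TPM at 14 nt before the start. The use of positions within GFAP was compared between regions with a test over the positions listed in at least 8 libraries. It did not pass between the hippocampus and the neocortex (F = 2.58, adjusted p = 0.37) or between CB and the other regions (F = 0.95, adjusted p = 0.89). ALDOC, the only other member with enough positions, did not pass either (adjusted p = 0.999 and 0.989). Of 1265 genes tested, 3.40% and 0.870% were called in these comparisons. The main position of GLUL held 93.3% of its TPM in CA1 and 56.8% in PFC. There the rest lay mostly at 417 and 420 nt after the start (434 and 278 TPM), beside the main position at 418 nt. In all, 99.9% of the TPM of GLUL in PFC was within 500 nt of the start. For ALDH1L1 the main position held all of the TPM in PFC, 82.1% in DG and 76.7% in CA1, and none in OC.

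For ages, each of the 8 animal groups entered with its mean over all regions. None of the 8 genes was called between 10 and 20 yr and 1 and 4 yr, nor was any of the 6106 genes (0% called in limma, with 585 at an unadjusted p under 0.05). ALDH1L1 alone of the 8 had an unadjusted p under 0.05. Its mean log2(TPM + 1) was 2.44 ± 0.19 at 10 and 20 yr and 3.49 ± 0.58 at 1 and 4 yr (SD, n = 4 animal groups each). The groups overlapped slightly, since 20-yr-old females averaged 2.7145 and 1-yr-old females 2.7087. The difference was -1.05 ± 0.43 (SE; adjusted p = 0.48), beside a median of -0.30 for all genes. ALDH1L1 was listed in 12 of 32 libraries of 10 and 20 yr and in 19 of 32 of 1 and 4 yr. The share of all genes listed at these ages was not computed beside this count. Of the 6 libraries with fewer than 1000 listed genes, all but that of PCC from 4-yr-old males were of 10 or 20 yr. The differences of the other 7 genes lay between -0.32 and 0.20. That of GFAP, also known as a marker of reactive astrocytes, was 0.20 (95% interval -0.87 to 1.26).

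The age differences of ALDH1L1 had opposite signs in the hippocampus and in PFC, in a comparison that did not pass the test. In the hippocampus its mean log2(TPM + 1) was higher at 10 and 20 yr than at 1 and 4 yr (5.70 against 3.27 in CA1, and 8.42 against 6.37 in DG). In 4 of the 5 neocortical regions it was lower, with 0.80 at 10 and 20 yr against 5.63 at 1 and 4 yr in PFC, while OC had 1.70 at 10 and 20 yr and 1.68 at 1 and 4 yr. Over the neocortex 4 of 20 libraries of 10 and 20 yr listed it, against 11 of 20 of 1 and 4 yr. The share of all genes listed at these ages was not computed. In PFC, libraries of 10 and 20 yr listed 1698, 2801, 1654 and 2076 genes. Those of 1 and 4 yr listed 3363, 4942, 2963 and 2534. The difference of the age differences of ALDH1L1 between the hippocampus and the neocortex was 4.56 ± 1.55 (SE; 95% interval 1.43 to 7.68). It did not pass (adjusted p = 0.51), and the median for all genes was 0.44. In this comparison 0 of the 8 genes and 0.0164% of all genes were called in limma. An unadjusted p under 0.05 was found for 2 of the 8, ALDH1L1 and GJA1 (2.09, adjusted p = 0.67), beside 6.96% of all genes. GFAP differed the other way, by -2.05 (95% interval -4.66 to 0.56; adjusted p = 0.79). In DG GFAP had 371, 285, 277 and 3.92 TPM at 10 and 20 yr, against 1046, 638, 562 and 282 TPM at 1 and 4 yr. In OC it had 197, 186, 173 and 26.2 TPM at 10 and 20 yr, against 70.3, 27.3, 8.13 and 4.09 TPM at 1 and 4 yr. In both regions the ages overlapped. In CB against the other regions, 0 of the 8 genes was called, against 0.0164% of all, and none had an unadjusted p under 0.05 in limma.

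For males and females the same 8 means were used. None of the 8 genes and 0% of all genes were called in limma, with 349 genes at an unadjusted p under 0.05. GLUL was the 1 member among them. Its mean log2(TPM + 1) was 4.98 ± 0.30 in males and 3.47 ± 0.30 in females (SD, n = 4 animal groups each), with no overlap. The share of all genes with no overlap between the sexes was not computed beside this. At 1, 4, 10 and 20 yr the means were 4.91, 4.60, 5.31 and 5.12 in males and 3.84, 3.58, 3.29 and 3.16 in females. The difference was 1.52 ± 0.41 (SE; 95% interval 0.63 to 2.41; adjusted p = 0.83), beside a median of 0.19 for all genes. GLUL was listed in 23 of 32 libraries of males and in 23 of 32 of females, with medians of 76.4 and 13.1 TPM. The other 7 differences were between 0.08 and 0.68.

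**Figure D5:**
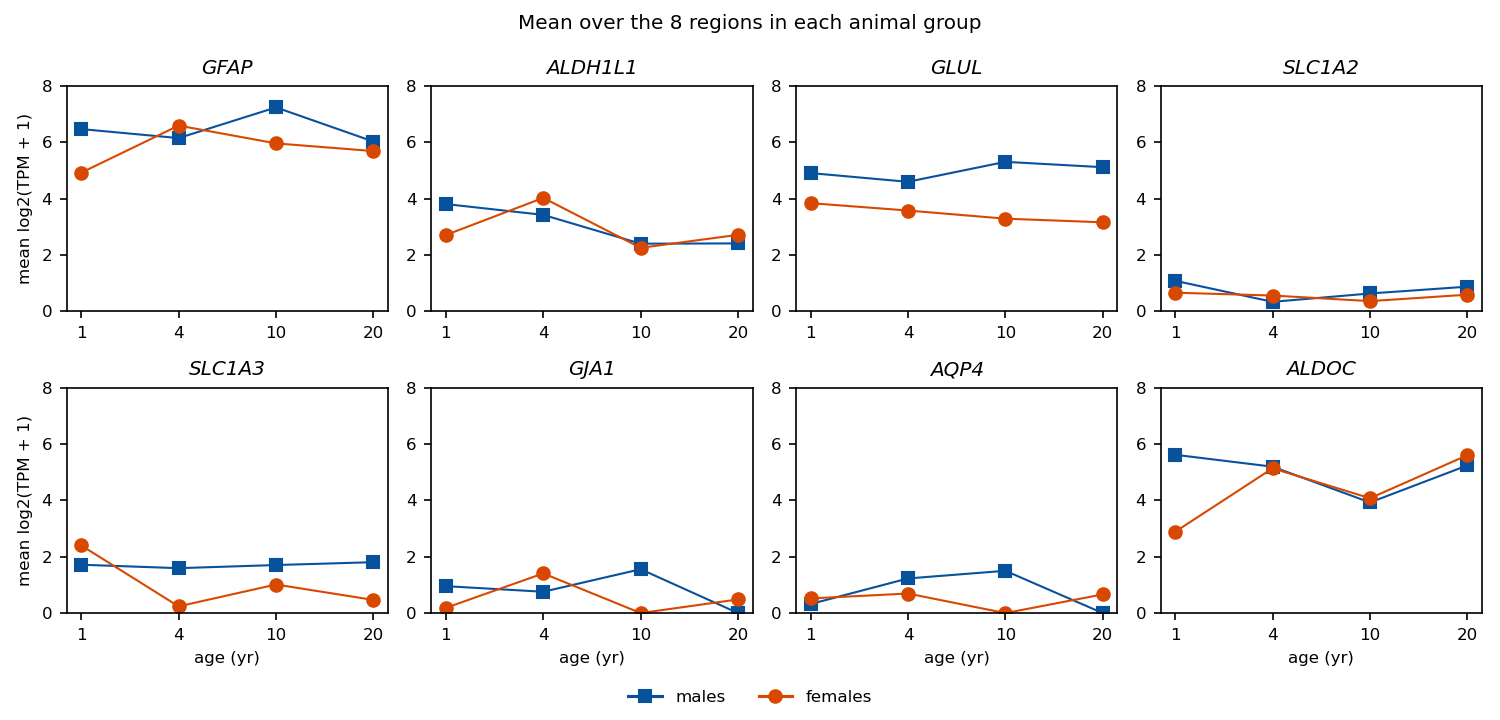
Mean log2(TPM + 1) over the 8 regions in each animal group, by age in yr, with squares for males and circles for females. The lines of GLUL do not meet (4.60 to 5.31 in males, 3.16 to 3.84 in females), but GLUL was not called (adjusted p = 0.83 in limma). ALDH1L1 has its lowest mean, 2.25, in 10-yr-old females and its highest, 4.03, in 4-yr-old females.

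Among the genes listed in at least 32 libraries, the pattern over the 64 libraries was compared by the Pearson r of log2(TPM + 1), as a description. The 3 genes most like GFAP were NNAT (0.62), SNRPB (0.60) and GAMT (0.58). Those most like GLUL were GNAO1 (0.59), PCMT1 (0.59) and CRLF3 (0.56), and those most like ALDOC were MRPL46 (0.57), TAB1 (0.56) and CHCHD5 (0.54). The other members were farther, with 0.41 between GFAP and GLUL, 0.35 between GFAP and ALDH1L1, and 0.26 between GFAP and ALDOC. The libraries share their depth and number of listed genes, with which GFAP had an r of 0.61, GLUL 0.56 and ALDOC 0.28.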

How the data were processed

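Filtered reads were aligned by the authors to MMUL 1.0 with TopHat2, allowing 2 mismatches, and uniquely mapped reads gave their 5′ ends. Positions with at least 0.5 TPM in 1 library were clustered by the authors, separately for each sample, when less than 20 nt apart, and assigned to genes. The listed positions were not joined across libraries, since those of GFAP include 14 and 15 nt before the start. The share of 1 position and its count of libraries therefore depend on which nucleotide a library lists. The deposited values, named TPM, are RPM values, tags per 1000000 tags of the library, not corrected for length. Depth was read from the step between low values. Values of positions were summed per gene.

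A gene was tested if 8 or more libraries had at least 1 TPM (6106 of 13269 genes, among them all 8 astrocyte genes). A gene listed mainly in 1 region can pass this filter through that region alone. Values of log2(TPM + 1) were fitted with limma 3.58.1 in R 4.3.3, two-sided, with p-values adjusted by Benjamini-Hochberg over all genes tested and a call at an adjusted p under 0.05. Folds on this scale understate changes of low genes. Differences of regions came from 1 model of all 64 libraries, with terms for region and animal group, those of ages and sexes from the mean of each of the 8 animal groups over the regions, age differences between regions by an interaction term, and use of positions by diffSplice of limma. The animal-group term follows from the study's methods, by which all regions were taken from each specimen. Region-centred deviations had a mean correlation of 0.0113 over 224 pairs of libraries of the same animal group and -0.0016 over 1568 other pairs. Scripts were tested on simulated data.

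The 8 genes and the lists of context genes were chosen with earlier results of these data known. All 8 are named, with each position that holds at least 10% of a gene's TPM, up to 4 called genes of each list with the smallest p in a comparison, and the 3 genes most like each member listed in at least 32 libraries. The lists cover other astrocyte genes, reactive astrocytes, glutamate and glutamine handling, gap junctions, aquaporins and endfeet, glycolysis, folate metabolism, neurons, cerebellar granule and Purkinje cells, oligodendrocytes, their precursors, microglia, endothelial cells and pericytes, and choroid plexus with ependyma and meninges. Alternatives were another pseudocount (0.25 TPM), no filter, quantile normalization, a trended and robust fit, positions within 500 nt of the start or of at least 2 TPM, a covariate for listed genes, other treatments of the animal group, and leaving out libraries or animal groups. Python 3.11.15, NumPy 2.4.6, pandas 2.3.3, Matplotlib 3.10.9 and version 1.17.8 of data.table were used. Sequences, exons and introns were not analysed here, and some genes of the lists are not reported here by name.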

Additional observations from a re-analysis of the deposited data

Results flagged for a closer look

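In 18 of the 52 combinations of gene and region that could be compared, the highest or lowest of the 8 libraries stood apart from the others on log2(TPM + 1), by a gap of more than 0.526 of the whole range. Chance gives this in about 1 in 20 groups of normally distributed values, which these values, with many at 0, are not. A further 12 combinations had every library at 0.

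In 10 of the 18, 1 library alone listed the gene. These were ALDH1L1 at 36.43 TPM in CB of 4-yr-old females and at 337.64 TPM in PCC of 4-yr-old females. SLC1A3 was so listed at 32.15 TPM in CB of 1-yr-old females, at 4.73 TPM in DG of 10-yr-old males and at 61.59 TPM in PFC of 1-yr-old males. GJA1 was so listed at 48.77 TPM in DG of 10-yr-old males. AQP4 was so listed at 2.47 TPM in DG of 20-yr-old females, at 110.35 TPM in PFC of 10-yr-old males, at 36.24 TPM in temporal cortex of 10-yr-old males and at 115.45 TPM in OC of 4-yr-old males.

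The other 8 stood apart among libraries that listed the gene. GFAP was at 0 in CB of 10-yr-old females and at 3.92 TPM in DG of 20-yr-old males, GLUL at 0 in PFC of 20-yr-old females, and ALDOC at 0 in OC of 1-yr-old females. On the high side, SLC1A2 was at 19.71 TPM in temporal cortex of 20-yr-old males, SLC1A3 at 222.07 TPM in OC of 1-yr-old females, GJA1 at 13.76 TPM in CA1 of 20-yr-old females, and GJA1 at 159.4 TPM in PC of 4-yr-old females. The DG library with GFAP at 3.92 TPM had the highest ALDOC of all libraries, 645.90 TPM.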

How the results depend on the processing

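The differences of GFAP and ALDH1L1 between the hippocampus and the neocortex stayed called under each alternative that could give a value but the covariate for listed genes (2.31 and 2.44), and leaving out each animal group gave 2.92 to 3.77 and 3.26 to 4.58. ALDH1L1, with no position within 500 nt of the start, had no value under that alternative. SLC1A2 in CA1, which entered the test only through its CA1 libraries, was not called after quantile normalization (1.42) and differed by 2.68 to 3.57 without single animal groups, values that are no sign of stability. SLC1A2 in the hippocampus, not called in the model with the replicate block, was called at the same 1.17 with no replicate block (adjusted p = 0.041), and in 3 of 8 fits without 1 animal group (0.96 to 1.46), those without 4-yr-old females, 10-yr-old females or 20-yr-old males. It was also called without the filter, with a pseudocount of 0.25 TPM (1.66) and with the animal group as a random effect. Under the filter SLC1A2 was tested only through its hippocampal libraries, so these calls are given as a description. AQP4 in CA1 was called at 2.43 without 10-yr-old males, at 3.10 with the pseudocount of 0.25 TPM and at 2.12 in the trended fit. AQP4 also entered that test only through its CA1 libraries, so its calls are given as a description. Among neocortical regions GFAP and GLUL were called without the PFC library of 20-yr-old females (adjusted p = 0.038 each), SLC1A3 without 1-yr-old (0.014) or 20-yr-old females (0.047), GLUL without 20-yr-old females (0.040), GFAP (0.041) and ALDOC (0.040) without 20-yr-old males, SLC1A3 (0.042) and ALDOC (0.047) with the pseudocount of 0.25 TPM, and GFAP with positions of at least 2 TPM (0.040).

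Uncalled differences changed sign in part. For the hippocampus, GJA1 was -0.27 after quantile normalization, -0.028 with positions of at least 2 TPM, -0.63 with the covariate, -0.022 without the PFC library and -0.17 without PCC, ALDOC was -0.21 after quantile normalization, -0.42 with the covariate and -0.39 without PCC, and GLUL was -0.38 with the covariate. For CA1, GJA1 was -0.47 after quantile normalization, -0.046 with positions of at least 2 TPM and -1.24 with the covariate, GFAP -1.03 with the covariate, and ALDOC 0.24 within 500 nt. GFAP in CB was 0.21 with the covariate. Without single animal groups, GJA1 lay between -0.31 and 0.34 in the hippocampus and between -0.39 and 0.80 in CA1, SLC1A3 between -0.75 and 0.042 in the hippocampus, and GFAP between -0.80 and 0.44 in CB. Of 469 other values of members, 73 changed sign and 0 were called in limma.

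Counts of called genes were 136 for CB, 500 for the hippocampus, 1182 for CA1, 283 among neocortical regions, 0 for age, 0 for sex, 1 for each interaction, and 11 and 43 for positions in CB and in the hippocampus. Without the filter they were 755 (hippocampus), 1838 (CA1), 152 (neocortex), 6 and 13 (interactions in CB and hippocampus), after quantile normalization 148, 276 and 144, with 0 for the hippocampal interaction, and with the covariate 123, 187 and 35. The trended fit gave 4 for age and 0 for the hippocampal interaction, positions within 500 nt gave 45 for CB, 136 among neocortical regions, and 2 and 0 for the interactions, and neocortical means gave 1 for age. Joined positions gave 32 and 84 and the filter of 16 libraries 2 and 6 for the use of positions. Without PCC they were 221 for the hippocampus and 25 among neocortical regions. Without single animal groups the counts were 91 to 137, 243 to 514, 747 to 1307, 127 to 312, 0 to 1 (age), 0 (sex), 0 to 4 and 0 to 2 (interactions), and 5 to 22 and 18 to 40 (positions). The lowest counts came without 20-yr-old females for the hippocampus and without 4-yr-old males for CA1, neocortical regions and positions in the hippocampus. The cause of these changes was not tested. A count test on recovered tags was planned and not run, since a listed value stands for at least 2 tags and lower ones are not listed. SLC1A2, GJA1 and AQP4 are at 0 in most libraries, so that their differences rest on few values.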

Other observations

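The water channel and endfoot genes other than AQP4 were listed at low levels. The 7 with a position summed to a median of 59.2 TPM in the hippocampal libraries and 63.97 TPM in the neocortical ones, and 0 of 6 tested were called in limma, with 1 at an unadjusted p under 0.05. In CA1 against DG 1 of 6 was called, MLC1, which entered the test only through CA1. Of the folate genes other than ALDH1L1, 1 was tested, and in limma it was not called for the hippocampus, CA1 or CB, nor was its unadjusted p under 0.05. Glycolytic genes summed to a median of 1587 TPM in CA1 and 3799 TPM in DG, and to 2498 TPM in the hippocampus and 3028 TPM in the neocortex. The medians of their log2 differences had the other sign, 0.61 for CA1 and 0.51 for the hippocampus. For the hippocampus 0 of 12 were called in limma and 3 had an unadjusted p under 0.05. In CB 0 of 12 were called in limma and 3 had an unadjusted p under 0.05.

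Genes of other cells gave context for the regions. In CB, 5 of 9 cerebellar genes were called higher, led by CBLN1 (9.20) and CBLN3 (9.02), secreted synaptic proteins of granule cells, CALB1 (6.14), a calcium-binding protein of Purkinje cells, and NEUROD1 (5.42), a transcription factor of granule cells. CBLN1 was listed in 2 libraries outside CB and CBLN3 in 1, so both entered the test only through CB. THY1 of the neuronal list was lower in CB (-3.77) and SYP higher (1.31). In the hippocampus CALB1 (2.56), NEUROD1 (2.37) and FOLR1 (1.32), a folate receptor of the choroid plexus, were called higher. In CA1 against DG, SYT1 (5.00), NEFL (4.13), PPP1R17 (3.35), PDGFRA (3.22), a receptor of oligodendrocyte precursors, CSF1R (2.87), a receptor of microglia, FOLR1 (2.42) and GJB1 (3.34) were higher and SYP (-2.53) lower. Endothelial and pericyte genes had 0 of 3 called in limma in these 3 comparisons, and 0 at an unadjusted p under 0.05.

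Among the neocortical regions, HOPX (adjusted p = 0.029), ID4 (adjusted p = 0.029) and CRYAB (adjusted p = 0.045), of the astrocyte lists, were called, with MBP, CALB1 and SLC13A4. The use of positions was called for APOE, the main apolipoprotein of astrocytes, and for CRYAB, a small heat shock protein, in CB (adjusted p = 0.0065 and 0.0049), and for CRYAB, PGAM1, C1QC and MBP in the hippocampus (adjusted p = 0.0090, 0.015, 0.015 and 0.028).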
